A study of Mus musculus with 2 samples.

Results

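T and natural killer (NK) lymphocytes were 135 of the 3261 cells kept from 2 libraries of injured mouse kidney, 45 of 1767 after vehicle and 90 of 1494 after CA3. A kept cell had 500 or more genes and at most 50% of its UMIs (unique molecular identifiers, each one RNA molecule counted) from mitochondrial genes. A member held 4 or more UMIs summed over Cd3d, Cd3e, Cd3g, Trbc2 and Nkg7, under 25 UMIs of the tubule genes Slc34a1 and Lrp2 per 10000 non-mitochondrial UMIs, and at most 2 UMIs each of Cd79a, C1qb and Hbb-bs. The members were therefore chosen by measured values, and levels of these genes are a description of the choice.

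Both libraries came from whole kidneys of female C57Bl/6 mice of the genotype Pax8.rtTA;TetO.Cre;R26.FUCCI2aR, labelled 9 weeks old, after rhabdomyolysis, in which contents of broken muscle reach and injure the kidney. The groups received vehicle or CA3, a name in use for an inhibitor of the transcriptional co-activator YAP. Pax8 drives the transgene in kidney tubule epithelium, so the fluorescent cell cycle reporter is not aimed at lymphocytes. Neither group is uninjured, each is 1 library, and the number of mice, the dose and the time after injury are not stated in the labels. No test across animals is possible, and every interval printed covers counting error only, at 95%.

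T cells recognise antigen through a T cell receptor, made of alpha and beta or of gamma and delta chains, which signals through the CD3 chains and CD247. NK cells lack that receptor and read other cells through activating and inhibitory receptors such as NKp46 (Ncr1) and the Klr family. Both kill with perforin and granzymes, and Nkg7 is a protein of their cytotoxic granules. Naive and recirculating T cells instead carry the transcription factors Lef1 and Tcf7, and Ccr7, the chemokine receptor that directs cells to lymph nodes. In the kidney, tissue lymphocytes include CD4 and CD8 T cells, gamma delta T cells that make interleukin 17, regulatory T cells and NK cells.

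The members held 227902 non-mitochondrial UMIs in vehicle and 559139 in CA3. A member had a median of 4709 such UMIs (3621 to 7899) in vehicle and 5562.5 (3283 to 20647) in CA3, and 4 CA3 members and 0 vehicle members held over 10000. Mitochondrial genes gave a median of 5.95% and 4.76% of a member's UMIs, against 17.5% and 17.7% in all kept cells. The libraries shared 1 cell barcode, and no member carried it. No doublet caller was run, so pairs of lymphocytes in 1 droplet were not searched for. Levels are UMIs per 1000000 non-mitochondrial UMIs (CPM), and each ratio is a ratio of CPM summed over cells.

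The membership rule cut through a nearly empty range. The summed UMIs of the 5 genes ran from 5 to 56 (median 24) in vehicle members and from 8 to 82 (median 28) in CA3 members. Among kept cells that did not reach the limit, 1700 vehicle and 1363 CA3 cells held 0, 16 and 36 held 1, no vehicle and 1 CA3 cell held 2, and 1 vehicle and no CA3 cell held 3. Of the cells that reached it, the tubule limit removed 4 in each library and the Hbb-bs limit 1 vehicle cell, which held 1295 Hbb-bs UMIs. The highest tubule value inside was 12.3 per 10000 in vehicle and 13.6 in CA3, and the lowest outside was 32.5 and 32.3.

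Markers that the rule did not use fitted the label of T and NK lymphocytes. Trac, the constant part of the receptor alpha chain, had a UMI in 71.1% of vehicle and 75.6% of CA3 members and in 0.366% and 0.452% of proximal tubule cells. Cd3g, a signalling chain of the receptor and a gene of the rule, had a UMI in 93.3% and 94.4% of members by that choice, and in 0.366% and 0.904% of tubule cells. Ccl5, a chemokine of memory T and NK cells, was found in 33.3% and 61.1% of members against 1.46% and 3.98% of tubule cells. The tubule cells held at least 25 tubule UMIs per 10000, numbered 1366 and 1106, and had median depths of 5732 and 5961.5 UMIs. The pan-leukocyte gene Ptprc was at 1387 and 1431 CPM in members, and at 9.25 and 6.86 CPM in tubule cells.

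Most defining genes of other cells were low or absent in the members. The macrophage genes C1qa, Csf1r and Adgre1, the B cell genes Ms4a1, Ebf1 and Pax5 and all 5 stromal genes had 0 UMIs in both libraries. The B cell list of 8 genes still summed to 96.5 CPM in 14 vehicle cells and 94.8 CPM in 34 CA3 cells, against 40.8 and 97.4 CPM in the other kept cells and 7.01 and 5.96 CPM in tubule cells. Ighm, the mu heavy chain, gave 20 of these UMIs in vehicle and 49 in CA3, and the source of this RNA was not tested. Of the 9 macrophage and monocyte genes, 2 had a UMI in vehicle (8.78 CPM summed) and 6 in CA3 (41.1 CPM). Of the 9 dendritic cell genes, 2 had a UMI in vehicle (13.2 CPM) and 6 in CA3 (150 CPM, 94.2 without the cell with most). The 11 proximal tubule genes summed to 1036 and 1034 CPM in members and to 37661 and 39705 CPM in tubule cells. The thick ascending limb list stood at 61.4 CPM in vehicle and 225 in CA3, and the distal nephron list at 35.1 and 224, of which 1 CA3 cell each held most: without it they were 70.8 and 78.0 CPM.

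The start regions of 5 genes are shown. The CD3 pair common to T cells, the granule gene Nkg7, and Lef1 of naive cells gave UMIs that divided the lymphocytes. Gzma, also a granule gene, was not used to divide them. Each is 300 bases, from 250 before to 50 after the RefSeq start site on GRCm38.p6 (mm10), written 5′ to 3′ on the gene's strand, with matches to a searched motif in capitals. Cd3d is at chr9:44981536-44981835 (plus strand), Cd3g at chr9:44980382-44980681 (minus), Nkg7 at chr7:43436888-43437187 (plus), Gzma at chr13:113100932-113101231 (minus) and Lef1 at chr3:131110047-131110346 (plus, the first of 4 starts listed).
Cd3d: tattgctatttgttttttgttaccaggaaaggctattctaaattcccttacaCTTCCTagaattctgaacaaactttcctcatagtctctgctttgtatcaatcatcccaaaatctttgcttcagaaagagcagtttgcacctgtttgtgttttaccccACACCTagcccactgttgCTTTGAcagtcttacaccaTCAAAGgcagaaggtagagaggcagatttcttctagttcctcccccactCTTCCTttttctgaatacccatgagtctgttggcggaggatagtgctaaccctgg
Cd3g: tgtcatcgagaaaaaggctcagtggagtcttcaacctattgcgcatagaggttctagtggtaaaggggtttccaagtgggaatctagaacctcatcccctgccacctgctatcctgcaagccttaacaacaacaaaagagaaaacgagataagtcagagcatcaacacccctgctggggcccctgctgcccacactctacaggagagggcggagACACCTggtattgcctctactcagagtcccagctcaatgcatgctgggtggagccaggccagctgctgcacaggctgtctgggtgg
Nkg7: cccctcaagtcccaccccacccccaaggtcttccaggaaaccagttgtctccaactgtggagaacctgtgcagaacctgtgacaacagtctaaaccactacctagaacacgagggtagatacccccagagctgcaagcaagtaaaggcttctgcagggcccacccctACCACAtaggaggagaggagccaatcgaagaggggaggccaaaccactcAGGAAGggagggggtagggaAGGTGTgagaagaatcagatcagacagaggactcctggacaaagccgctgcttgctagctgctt
Gzma: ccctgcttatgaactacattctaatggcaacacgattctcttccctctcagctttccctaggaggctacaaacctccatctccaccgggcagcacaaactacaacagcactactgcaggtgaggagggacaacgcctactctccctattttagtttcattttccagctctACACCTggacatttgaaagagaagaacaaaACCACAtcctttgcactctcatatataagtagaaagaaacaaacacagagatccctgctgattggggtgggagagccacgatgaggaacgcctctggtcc
Lef1: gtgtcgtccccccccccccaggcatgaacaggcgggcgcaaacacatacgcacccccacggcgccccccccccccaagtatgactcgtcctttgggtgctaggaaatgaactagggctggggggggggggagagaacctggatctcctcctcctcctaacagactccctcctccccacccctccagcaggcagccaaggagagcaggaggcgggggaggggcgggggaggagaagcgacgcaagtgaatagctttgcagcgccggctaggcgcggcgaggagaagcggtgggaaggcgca
The start sites of Cd3g and Cd3d, which code for partner chains of the CD3 complex, lie 1355 bases apart and point away from each other.

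The motifs were TGTGGT (RUNX), AGGAAG (ETS), CTTTGA (TCF/LEF) and AGGTGT (T-box), searched on both strands, and no match overlapped another. They occur in 16.8%, 35.4%, 16% and 13.7% of the 32851 promoters of the same length. The Cd3d window held 2 ETS, 2 TCF/LEF and 1 T-box match, and the Cd3g window 1 T-box match. Nkg7 had 1 match each of RUNX, ETS and T-box, and Gzma 1 each of RUNX and T-box. The Lef1 window held none of these letters. A match is a run of letters and was not tested as a binding site. Of the 368 genes in the lists used below, 270 had a start region in the table, and Ccl5, Ccr7, Trac and Trdc did not.

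**Figure D1:**
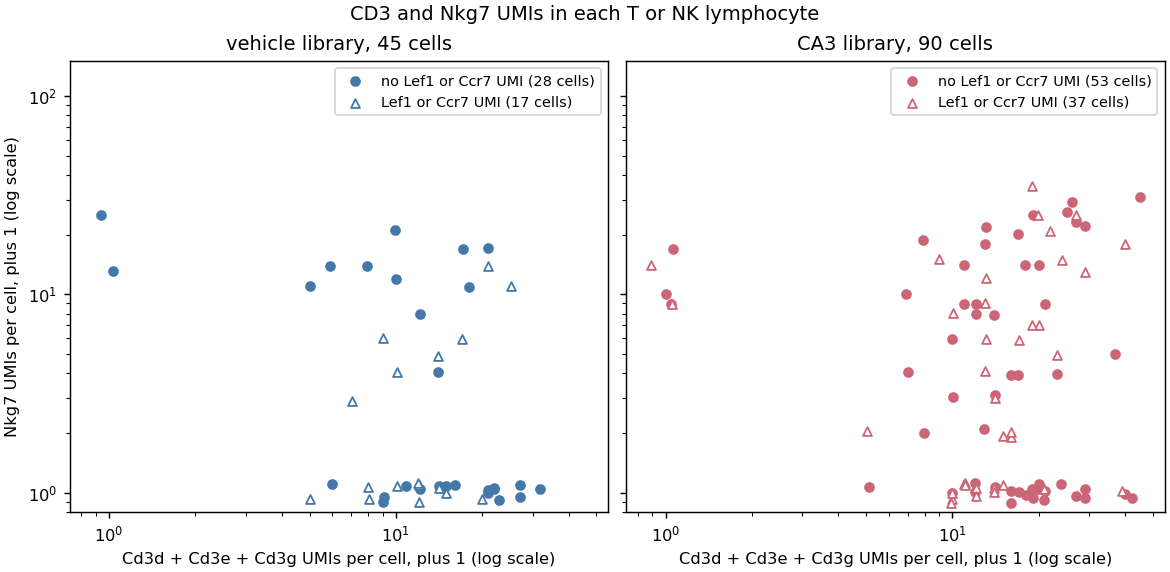
Each point is 1 of the 45 vehicle (left) or 90 CA3 (right) lymphocytes, by its summed Cd3d, Cd3e and Cd3g UMIs (x axis) and its Nkg7 UMIs (y axis), both plus 1 on log scales with a small random shift; triangles mark cells with a Lef1 or Ccr7 UMI. The 2 vehicle and 5 CA3 cells without CD3 UMIs stand apart at the left edge, and the CD3-positive cells spread from 0 to many Nkg7 UMIs.

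Cells with and without CD3 were clearly separated. CD3-positive cells, with 2 or more UMIs of Cd3d, Cd3e and Cd3g together, were 43 of 45 vehicle members (95.6%, exact Clopper-Pearson interval 84.9 to 99.5) and 85 of 90 CA3 members (94.4%, 87.5 to 98.2). The lowest of them held 4 UMIs in each library, and the medians were 13 and 15. The other 2 vehicle and 5 CA3 cells held 0, and no cell held exactly 1. Because a cell without CD3 entered only through Trbc2 or Nkg7, high Nkg7 in these 7 cells was fixed by the rule.

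The 7 CD3-negative cells carried NK genes and few T cell receptor UMIs. Trac, Cd4, Cd8a, Cd8b1, Il7r and Il17a had 0 UMIs in all 7, while Ncr1 and Klrd1, both NK receptors, and the adaptors Tyrobp and Fcer1g had a UMI in all 7. Of the other NK markers, Klrb1c and Klre1 were each found in 2 vehicle and 4 CA3 cells, Eomes in 2 and 1. Klrk1 was found in 6 of the 7. In CA3, 1 cell held 0 UMIs of Klrb1c, Klre1, Eomes, Gzma, Gzmb and Prf1, with 1 of Tyrobp and 6 of Ncr1. T cell receptor UMIs were not wholly absent: Trbc2 had 3 in the 2 vehicle cells and 4 in 1 CA3 cell, Trbc1 had 1 and 4, and Trdc 3 in 2 CA3 cells. Gzma, a granzyme, had 25 and 67 UMIs in the 2 vehicle cells and from 0 to 93 (median 77) in the 5 CA3 cells. Gzma was also found in 4 of the 43 CD3-positive vehicle cells and 9 of the 85 CA3 ones, so cells of the 2 classes overlapped. Its level was 535 CPM in CD3-positive and 9945 CPM in CD3-negative vehicle cells, a ratio of 0.0538 (0.0406 to 0.0715), and 469 against 14025 CPM in CA3, a ratio of 0.0334 (0.0282 to 0.0396).

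Of the 3969 genes with 30 or more UMIs, 166 (4.18%) were at least 2-fold higher in CD3-negative cells in both libraries and 37 (0.932%) in CD3-positive cells. Since the vehicle library holds 2 CD3-negative cells, these counts rest on few cells, and with both libraries summed they were 455 and 399. The 2 directions did not face the same limit. A gene with 0 UMIs in the 2 vehicle cells was set to 3 UMIs, while 1 UMI in them already stood at 108 CPM. At minimums of 15 and 60 UMIs the CD3-positive count stayed at 37, while the CD3-negative count was 293 and 64. No order is read from the sizes of the counts. The 11 proximal tubule genes stood at 8540 CPM in the CD3-negative vehicle cells, where 1 cell held 75 of the 79 UMIs, against 718 CPM in CD3-positive ones, and at 792 against 1043 CPM in CA3. The part of this tubule RNA in the split was not tested. With members under 5 tubule UMIs per 10000, which leaves 1 CD3-negative vehicle cell, 141 genes were higher in CD3-negative and 13 in CD3-positive cells. The NK list had 12 measured genes, of which 8 were higher in CD3-negative cells and 0 in CD3-positive ones, with median log2 ratios of -3.53 in vehicle and -2.47 in CA3. The cytotoxic list had 9 of 16 higher in CD3-negative cells, with medians of -1.58 and -1.74. Over both libraries, 100% of CD3-negative cells had an Nkg7 UMI, which the rule favoured, against 53.1% of CD3-positive cells. The counts of these lists therefore also compare Nkg7-bearing cells with a mixed group. Nkg7 is itself among the listed genes, here and in the next division. The T cell receptor list, part of which defined the split, had 4 of 7 higher in CD3-positive cells. The median over all measured genes was 0 in each library, with genes at 0 UMIs on one side held at their bound against 3 UMIs.

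Among genes higher in the CD3-negative cells were Irf8, a transcription factor also of dendritic cells, Prf1, which codes for perforin, and the chemokine Ccl3. Irf8 had 16 UMIs in the 2 CD3-negative and 6 in the 43 CD3-positive vehicle cells, and 30 and 20 in the CA3 cells, giving ratios of 0.0159 (0.0051 to 0.0427) and 0.0266 (0.0143 to 0.0484). Prf1 was at 1081 against 41.2 CPM in vehicle and at 1491 against 52.1 CPM in CA3. Ccl3 had 11 against 5 UMIs in vehicle and 27 against 5 in CA3, although its CA3 UMIs came from 3 of the 5 cells. Il18rap, a chain of the interleukin 18 receptor, Plek, Zeb2, Klre1, Klrd1, Tyrobp and Fcer1g also met the rule for named genes, with ratios between 0.0291 and 0.152. Ccl5 differed least of these, at 0.210 in vehicle and 0.239 in CA3, since many CD3-positive cells carried it too.

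Among genes higher in the CD3-positive cells were Il7r, the interleukin 7 receptor, and Rgs1, a regulator of chemokine receptor signalling. Il7r had 170 UMIs in CD3-positive and 0 in CD3-negative vehicle cells, at least 2.40-fold higher against a floor of 3 UMIs, and 240 and 0 in CA3, at least 3.19-fold higher. Rgs1 had 331 and 1 UMIs in vehicle, a ratio of 14.0 (2.50 to 555), and 909 and 7 in CA3, a ratio of 5.18 (2.51 to 12.9). Lat, the adaptor that links the T cell receptor to signalling, was at 485 against 108 CPM in vehicle and 365 against 93.2 CPM in CA3, and the vehicle interval (0.788 to 179) reached below 1. S100a4, Rora, Ly6e, Srgn, Eef1b2, Trbc1, Fyb, Cfl1 and Smad7 also met the rule. Of these, Trbc1, Fyb, Cfl1 and Smad7 had vehicle intervals that reached below 1, as did that of Smad7 in CA3, and with cells thinned to 2000 UMIs the vehicle ratios of Trbc1 and Smad7 turned, to 0.288 and 0.750.

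Some CD3-positive cells carried the NK adaptor Fcer1g. It had a UMI in 2 of 43 vehicle and 12 of 85 CA3 CD3-positive cells, and 5 or more UMIs in 2 and 7 of them, with a highest count of 20 and 52. Nkg7 was present in 2 of 2 and 10 of 12 of these cells, Trdc in 0 and 5, and Cd8a or Cd8b1 in 0 and 3. This grouping of cells was chosen after the values were seen.

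A second division ran between Nkg7 and Lef1 or Ccr7. Cells with an Nkg7 UMI and none of Lef1 or Ccr7, called Nkg7-positive here, were 12 of 45 in vehicle (26.7%, 14.6 to 41.9) and 32 of 90 in CA3 (35.6%, 25.7 to 46.3). Cells with Lef1 or Ccr7 and no Nkg7 were 10 (22.2%, 11.2 to 37.1) and 13 (14.4%, 7.92 to 23.4). Both were found in 7 (15.6%) and 24 cells (26.7%), and neither in 16 (35.6%) and 21 (23.3%). All intervals of the ratio between the libraries include 1 for these 4 classes, from 0.263 at the lowest bound to 4.71 at the highest. The median depths of the 4 classes lay between 4544.5 and 5722 UMIs in vehicle and between 5134.5 and 6885 in CA3, so an absent UMI is not an absent gene.

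**Figure D2:**
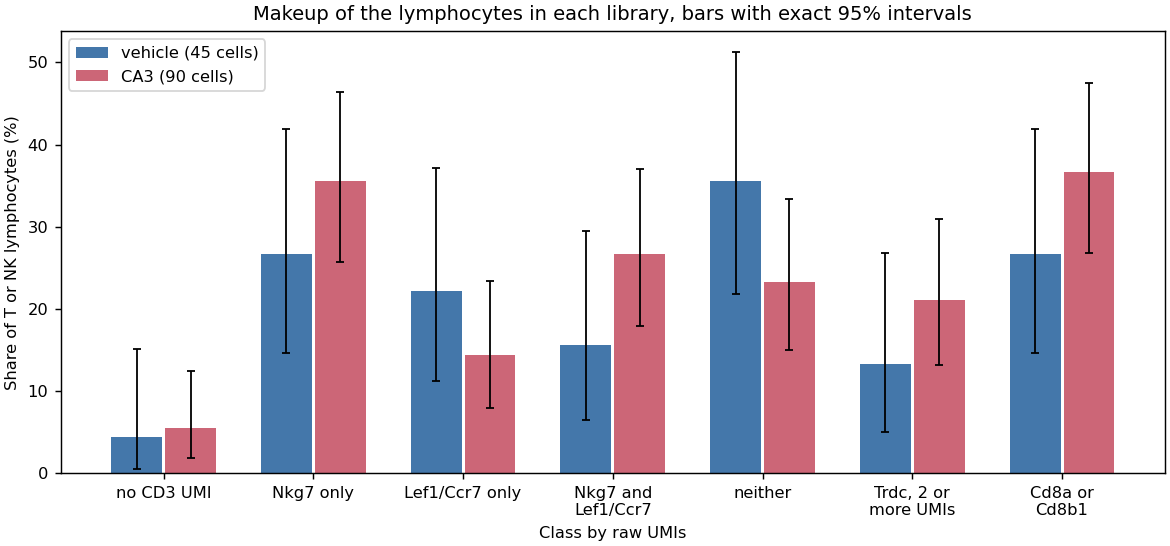
Bars give the share of the 45 vehicle and 90 CA3 lymphocytes (y axis, percent) in each class by raw UMIs (x axis), with exact 95% intervals for counting error. The intervals of the libraries overlap in every class shown, and the largest classes are cells with neither gene in vehicle (35.6%), and Cd8a or Cd8b1 cells (36.7%) and Nkg7 only cells (35.6%) in CA3.

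Nkg7-positive cells carried the cytotoxic genes and Lef1/Ccr7-positive cells the naive genes, in both libraries. Of 1921 genes measured, 118 (6.14%) were at least 2-fold higher in Nkg7-positive cells in both libraries and 42 (2.19%) in Lef1/Ccr7-positive cells. The cytotoxic list had 13 of 15 genes higher in Nkg7-positive cells (median log2 ratio 3.16 in vehicle and 3.58 in CA3) and the NK list 6 of 8 (1.89 and 3.52). The naive list, which holds Lef1 and Ccr7 themselves, had 9 of 10 higher in Lef1/Ccr7-positive cells (-2.06 and -3.20). The medians over all measured genes were 0.06 and 0.19. The 7 genes of the T cell receptor complex included 0 in either direction, and 10 of 12 vehicle and 29 of 32 CA3 Nkg7-positive cells were CD3-positive, like all Lef1/Ccr7-positive cells. The other 2 and 3 Nkg7-positive cells, without CD3 UMIs, are part of the list counts above.

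Ccl5 had 939 UMIs in 12 Nkg7-positive and 0 in 10 Lef1/Ccr7-positive vehicle cells, and 1530 in 32 and 9 in 13 CA3 cells. It was at least 254-fold higher in vehicle and 79.3-fold higher (41.7 to 174) in CA3. Every one of the 12 vehicle and 30 of the 32 CA3 Nkg7-positive cells held it, against 0 of 10 and 2 of 13 Lef1/Ccr7-positive cells, so the classes overlapped in CA3 alone. Gzma had 207 and 257 UMIs in Nkg7-positive cells and 0 in Lef1/Ccr7-positive cells of both libraries, but these came from 5 of 12 and 6 of 32 cells. Ccl4, a chemokine of activated killer cells, had 87 and 0 UMIs in vehicle and 318 and 1 in CA3. Klrd1, Gzmk, Tyrobp, Ly6c2, Klre1 and Xcl1 likewise had from 0 to 3 UMIs in Lef1/Ccr7-positive cells. The 2 CD3-negative vehicle cells lay in the Nkg7-positive class. They held 19 of its 19 Tyrobp, 16 of its 17 Klre1 and 11 of its 24 Klrd1 UMIs. They also held 92 of its 207 Gzma and 174 of its 939 Ccl5 UMIs. In CA3, 2 of the 3 CD3-negative cells of the class held 46 and 93 of its 257 Gzma UMIs. How far this division repeats the CD3 split was not tested. Ly6c2 shares 49.2% of the 31-base words in the last 400 bases of its transcript with other genes, so its UMIs could in part be those of a relative.

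The next 3 genes had UMIs in both classes. Ifng, interferon gamma, was at 517 against 42.5 CPM in vehicle, a ratio of 12.2 (3.09 to 105), and 423 against 35.4 CPM in CA3, a ratio of 12 (3.95 to 59.3). The long RNA AW112010 was 4.99-fold (3.10 to 8.46) and 4.47-fold (3.22 to 6.35) higher. Dusp2, a phosphatase of activated lymphocytes, was 5.76-fold (2.96 to 12.5) and 4.11-fold (2.75 to 6.37) higher. For these 3 genes the libraries gave ratios whose intervals overlapped.

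On the side of Lef1/Ccr7-positive cells stood Satb1, a chromatin organiser of T cells, S1pr1, the receptor with which lymphocytes leave tissue, Il7r and Tcf7. Satb1 had 20 UMIs in Lef1/Ccr7-positive and 2 in Nkg7-positive vehicle cells, and 70 and 12 in CA3, with ratios of Nkg7-positive over Lef1/Ccr7-positive of 0.0812 (0.0092 to 0.334) and 0.0799 (0.0394 to 0.149). S1pr1 was at 531 against 121 CPM in vehicle and 519 against 33.0 CPM in CA3. Tcf7 was at 552 against 69.0 CPM in vehicle and 271 against 77.0 CPM in CA3. Ripor2, Tmem64, Rgcc, Dusp10, Limd2, Dgka, Selenop and Ramp1 also met the rule, with ratios from 0.0738 to 0.432. Cells with both Nkg7 and Lef1 or Ccr7 lay between for Satb1 in CA3, at 227 CPM against 66.0 and 825 in the other classes, but not in vehicle, where they held 581 against 34.5 and 425 CPM.

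**Figure D3:**
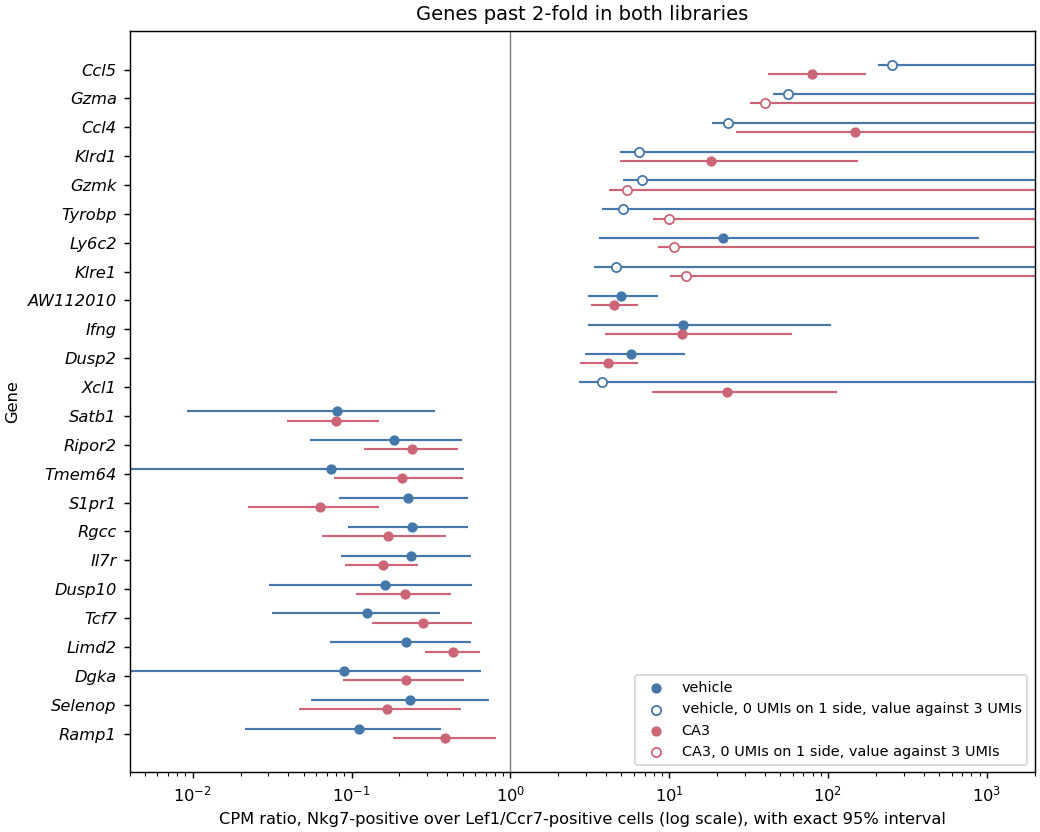
Points give the CPM ratio of Nkg7-positive over Lef1/Ccr7-positive cells (x axis, log scale) for the 24 named genes (y axis) in the vehicle and CA3 libraries, lines the exact 95% intervals, and open points ratios set against a floor of 3 UMIs where one side held 0; lines that reach the edge of the plot go on beyond it. The 12 upper genes lie right of 1 in both libraries, led by Ccl5, and the 12 lower genes left of 1, led by Satb1.

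Cd8 UMIs lay mostly in cells with Nkg7, with or without Lef1 or Ccr7, while Cd4 UMIs were found on both sides of the division. A Cd8a or Cd8b1 UMI, marking CD8 T cells, was present in 8 of 12 vehicle and 16 of 32 CA3 Nkg7-positive cells, in 3 of 7 and 14 of 24 cells with both genes, in 0 of 10 and 3 of 13 Lef1/Ccr7-positive cells and in 1 of 16 and 0 of 21 cells with neither. Cd4 was found in 2 of 12 and 9 of 32 Nkg7-positive cells and in 3 of 10 and 8 of 13 Lef1/Ccr7-positive cells. In all, 12 vehicle and 33 CA3 cells had a Cd8 UMI, 8 and 24 a Cd4 UMI, 0 and 3 both. The Cd4 counts rest on 10 and 39 UMIs, so cells without one cannot be called CD4-negative.

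Many cells with neither Nkg7 nor Lef1 or Ccr7 carried genes of gamma delta T cells. Trdc, the constant part of the receptor delta chain (mm10 chromosome 14, 54142851 to 54148868, plus strand), had 46 of its 61 vehicle UMIs and 133 of its 215 CA3 UMIs in these cells. Its level there was 552 and 1027 CPM, against 0 and 275 CPM in Nkg7-positive cells. Il17a, the cytokine interleukin 17A (chromosome 1, 20730905 to 20734496, plus strand), had 0 UMIs in every Nkg7-positive cell and every cell with both genes, in both libraries. Il17a was at 552 and 1321 CPM in cells with neither gene and at 1699 and 212 CPM in Lef1/Ccr7-positive cells, where 2 vehicle cells gave all 80 UMIs. Cd163l1, a scavenger receptor of interleukin 17-making gamma delta T cells, and the variable segment Trdv4 were likewise at 0 in all Nkg7-bearing cells.

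These genes met in the same cells. At least 2 Trdc UMIs were found in 6 of 45 vehicle (13.3%, 5.05 to 26.8) and 19 of 90 CA3 members (21.1%, 13.2 to 31), a ratio of shares of 1.58 (0.608 to 4.84). Il17a was present in 5 of the 6 and 11 of the 19, which held 89 of 126 and 164 of 189 Il17a UMIs, against 4 of 38 and 1 of 70 cells with 0 Trdc. Cd163l1 was present in 5 of 6 and 13 of 19, Trdv4 in 5 and 12, and Tcrg-C1, a constant part of the gamma chain, in 5 and 17. Trac, the alpha chain, was found in 1 of the 6 and 3 of the 19, against 30 of 38 and 65 of 70 cells with 0 Trdc. The Trdc grouping was chosen after the values were seen, and it is a description.

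The Trdc cells were not of 1 kind. Of the 19 CA3 cells, 13 had neither Nkg7 nor Lef1 or Ccr7, but 5 had Nkg7, 6 had Fcer1g, 3 had Gzma and 2 had a Cd8 UMI. Among the 5 with Nkg7 was 1 of the CD3-negative cells described above. It held 2 Trdc UMIs and no Tcrg-C1 UMI, with 77 Gzma, 17 Fcer1g and 5 Ncr1 UMIs. In vehicle 4 of the 6 had neither gene, and none had Nkg7, Fcer1g, Gzma or Cd8. A count of 0 among 6 cells limits such a share little, and whether the libraries differ in this was not tested.

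**Figure D4:**
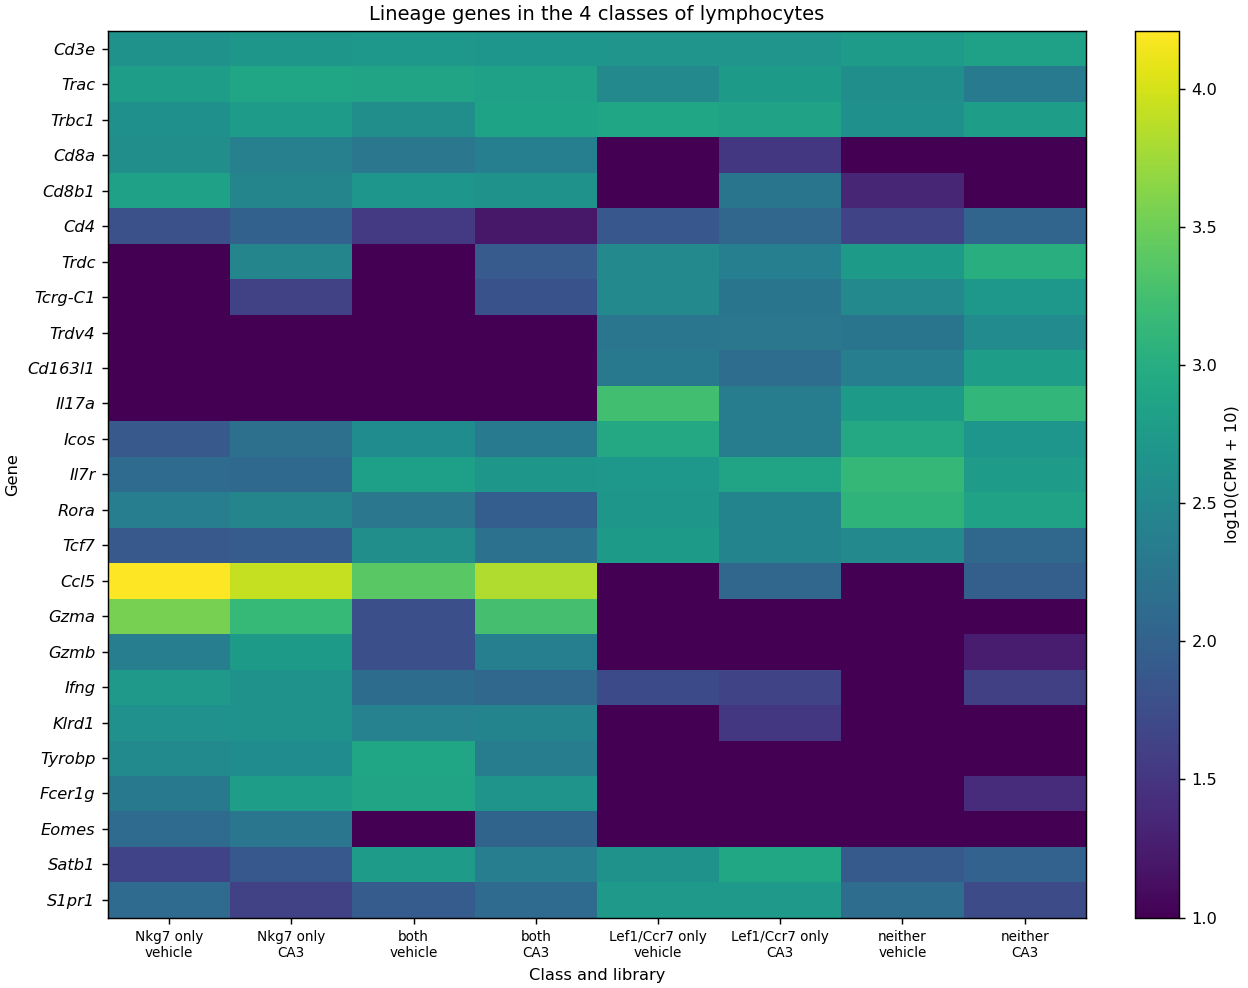
Colour gives log10 of CPM plus 10 for 25 lineage genes (rows) in the 4 classes of lymphocytes in each library (columns), from dark (0 CPM) to yellow. Ccl5 reaches 16194 CPM in Nkg7 only cells and at most 106 CPM in columns without Nkg7, while Il17a and Cd163l1 are at 0 in every column with Nkg7.

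T and NK lymphocytes were a larger share of the kept cells in the CA3 library. They were 2.55% (1.86 to 3.39) of kept cells in vehicle and 6.02% (4.87 to 7.35) in CA3, a ratio of 2.37 (1.64 to 3.46). Among kept cells below the tubule limit, 401 and 388, they were 11.2% (8.30 to 14.7) and 23.2% (19.1 to 27.7), a ratio of 2.07 (1.43 to 3.03). With 1 library a group, a difference between the treatments cannot be told apart from one between these 2 preparations, and a share can change through the other cells.

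Within the lymphocytes, Ccl5 had a similar summed level in both libraries and Nkg7, a gene of the rule, a somewhat higher one in CA3. Both were found in a larger share of CA3 cells. The intervals printed here overlap, those of Ccl5 only at their ends. They are for thinned cells in the case of Ccl5, and none is given for its unthinned shares of 33.3% and 61.1%. With 1 library a group no order is read from these shares. Nkg7 was detected in 42.2% (27.7 to 57.8) of vehicle members and in 62.2% (51.4 to 72.2) of CA3 members, against 0.293% and 0.814% of tubule cells. With every cell thinned to 2000 UMIs, the shares were 35.6% (21.9 to 51.2) and 56.7% (45.8 to 67.1), and those of Ccl5 31.1% (18.2 to 46.6) and 56.7% (45.8 to 67.1). The level of Ccl5 was 4546 CPM in vehicle and 4743 in CA3, a ratio of 1.04 (0.971 to 1.12), and that of Nkg7 864 and 1095 CPM, a ratio of 1.27 (1.08 to 1.49). In Nkg7-positive cells alone Ccl5 was lower in CA3, at 8413 against 16194 CPM, a ratio of 0.520 (0.479 to 0.564), and Gzma at 1413 against 3570 CPM, a ratio of 0.396 (0.328 to 0.478). Cells with both Nkg7 and Lef1 or Ccr7 went the other way, with Ccl5 at 2452 CPM in vehicle and 6761 in CA3, a ratio of 2.76 (2.24 to 3.43), and Gzma at 50.5 and 1816 CPM on 2 and 296 UMIs. Of these 296, 77 and 85 lay in 2 CD3-negative cells, while no CD3-negative vehicle cell fell in this class. Among Nkg7-positive cells, 2 of 12 in vehicle and 3 of 32 in CA3 were CD3-negative. The part of this placement in the class ratios was not tested. Over all members, leaving out the 3 cells per library with most UMIs of the gene moved Ccl5 to 1.59 (1.44 to 1.76) and Gzma from 1.08 to 4.10 (2.78 to 6.28). For Gzma these were 3 of 6 vehicle but 3 of 13 CA3 cells with a UMI. Here and below, 3 cells are a larger part of the 45 vehicle than of the 90 CA3 members. That by itself can raise a ratio for a gene held by few cells.

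Of 3969 genes, 138 (3.48%) were at least 2-fold higher and 88 (2.22%) at least 2-fold lower in CA3 members. Most were low: 182 of the 226 had 30 to 59 UMIs summed over both libraries. With a minimum of 60 UMIs, 25 genes were higher and 19 lower of 2094 tested. The median log2 ratio over all measured genes was -0.0094 and the median size 0.29. These values compare 2 libraries and have no replicate check.

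Over all members, most lineage genes stayed within 2-fold between the libraries. Of the 7 genes of the T cell receptor complex, 4 of them genes of the rule, 0 passed 2-fold, with ratios from 0.937 for Trbc2 (0.824 to 1.07) to 1.38 for Trbc1 (1.11 to 1.73) and a median log2 ratio of 0.07. Cd3g was at 1255 CPM in vehicle and 1214 in CA3. Of 16 genes expressed in both T and NK cells 0 passed, with a median of 0.01.

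Among NK genes, 1 of 12 was higher and 1 lower. Eomes, a transcription factor of NK and memory CD8 T cells, had 7 UMIs in 4 vehicle cells and 47 in 18 CA3 cells, a ratio of 2.74 (1.23 to 7.18), and 11.3 (1.87 to 462) when the top 3 cells were left out. In vehicle these were 3 of the 4 cells with Eomes. Fcer1g had 40 and 189 UMIs (ratio 1.93, 1.36 to 2.78) and Ncr1 6 and 27 (1.83, 0.742 to 5.43), neither past 2-fold. Klra7, an inhibitory receptor, had 19 and 20 UMIs from 2 cells each (0.429, 0.217 to 0.850), and shares 52.2% of its transcript end words with other genes.

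Of 16 cytotoxic genes, Gzmb alone passed. Gzmb, granzyme B, had 15 UMIs in 6 vehicle cells and 138 in 19 CA3 cells, 65.8 against 247 CPM, a ratio of 3.75 (2.20 to 6.88). After the 3 cells per library with most Gzmb were left out, the ratio was 8.15 (2.66 to 40.6), and within Nkg7-positive cells 2.43 (1.36 to 4.72), at 224 against 544 CPM. The cells left out held 12 of the 15 vehicle and 77 of the 138 CA3 UMIs. Gzma had 209 UMIs in 6 vehicle cells and 553 in 13 CA3 cells, a ratio of 1.08 (0.918 to 1.27). Prf1 had 19 and 60 UMIs, a ratio of 1.29 (0.758 to 2.28). Within Nkg7-positive cells the cytotoxic list had 2 of 14 genes higher and 4 lower, where 7.49% and 3.51% of the 1255 genes measured there were higher and lower.

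Icos and Tcf7 were lower in CA3. Icos, a costimulatory receptor of activated T cells (mm10 chromosome 1, 60977927 to 61000320, plus strand), had 129 UMIs in 27 of 45 vehicle cells and 139 in 46 of 90 CA3 cells, 566 against 249 CPM, a ratio of 0.439 (0.343 to 0.563). Tcf7 had 71 UMIs in 24 cells and 76 in 34, a ratio of 0.436 (0.312 to 0.612). The lower level of Icos did not hold in Nkg7-positive cells, where it had 4 UMIs in vehicle and 26 in CA3, a ratio of 2.07 (0.719 to 8.17). In Lef1/Ccr7-positive cells it had 40 and 18 UMIs, a ratio of 0.250, where 4.39% of the 547 genes measured were higher and 7.13% lower in CA3. Of these cells, 3 of 10 in vehicle and 1 of 13 in CA3 had a UMI of Trdc, a gamma delta T cell gene. The part of these cells in the Icos ratio was not tested. Tcf7, Lmo4 and Tmem176b also turned in Nkg7-positive cells, to 1.12, 1.59 and 1.12 on few UMIs.

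Within the naive list Dapl1 was the 1 of 13 genes higher, with 7 UMIs in 2 vehicle cells and 43 in 10 CA3 cells (2.50, 1.12 to 6.6), of which 1 vehicle cell held 6, and Tcf7 the 1 lower. Lef1 had 32 and 122 UMIs, a ratio of 1.55 (1.05 to 2.37). Il7r, also of this list, was at 746 and 429 CPM, a ratio of 0.575 (0.471 to 0.705) that stayed inside 2-fold.

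Foxp3, the transcription factor of regulatory T cells, was found in CA3 cells only, with 29 UMIs in 6 of 90 cells and 0 in 45 vehicle cells. The CA3 level was at least 3.94-fold higher than the floor of 3 UMIs in vehicle, and 0 of 45 cells allows a share with a UMI of up to 6.67% by that floor and 7.87% by the exact interval, with 6.67% measured in CA3. The difference in share was not detectable at this number of cells. Of the 6 cells, 3 were Nkg7-positive, 1 Lef1/Ccr7-positive and 2 had neither. Of the 6 measured genes of the regulatory T list 0 were higher and Icos alone was lower. In Nkg7-positive cells 3 of 3 measured genes of the list, Ikzf2, Ctla4 and Icos, were higher in CA3 (median log2 ratio 1.32), against 7.49% of all genes measured there, on 0 to 7 vehicle UMIs each.

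Of 9 measured gamma delta and type 17 genes, 1 was higher. Tcrg-C2, a gamma chain constant segment, had 7 and 46 UMIs (2.68, 1.2 to 7.03), but shares 40.5% of its transcript end words with other genes. Trdc had 61 and 215 UMIs (1.44, 1.08 to 1.94), and Il17a 126 and 189 (0.611, 0.485 to 0.772). Of the 4 measured type 2 genes, Areg and Icos were lower and 0 higher. Areg, a growth factor of tissue repair, had 26 UMIs from 2 vehicle cells, 17 of them in 1, and 12 from 7 CA3 cells (0.188, 0.0865 to 0.386). Rora was at 632 and 317 CPM, a ratio of 0.501 (0.400 to 0.629), just inside the 2-fold limit.

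The other gene lists held few genes past 2-fold, and the genes named next were chosen after their values were seen. Of 6 tissue residency genes 1 was higher, Itga1, an integrin chain that binds collagen, with 12 and 70 UMIs (2.38, 1.28 to 4.82). Itga1 was also a gene of tubule cells, at 197 and 164 CPM against 52.7 and 125 in members, and with cells thinned to 2000 UMIs it was found in 28% and 24% of tubule cells and 11.1% and 14.4% of members. That share in members was below the share in tubule cells in both libraries, and the part of tubule RNA in the Itga1 values was not tested. Of 17 activation genes 1 was higher and 1 lower. Egr1, an immediate early transcription factor, had 25 and 141 UMIs (2.30, 1.49 to 3.67; 1.86, 0.958 to 3.95, without the top 3 cells), and Nr4a1, induced by receptor signalling, 76 and 81 (0.434, 0.314 to 0.602). In tubule cells Nr4a1 was lower in CA3 too, at a ratio of 0.368 (0.191 to 0.671). Of 9 antigen presentation genes of class I, Tap1 alone was higher (2.01, 1.17 to 3.69). Of 9 heat shock genes, Hspa1a alone was lower (0.352, 0.180 to 0.682), with 15 of its 22 vehicle UMIs in 1 cell and 0.742 (0.223 to 2.82) without the top 3 cells, and its near-identical copy Hspa1b, which could share its UMIs, stood at 1.36 (0.629 to 3.32).

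Of 9 measured cell cycle genes 1 was higher and 1 lower. Mcm6, of the replication helicase, had 3 and 29 UMIs (3.94, 1.22 to 20.2), and Mki67, a protein of dividing cells, 16 and 17 UMIs in 6 and 10 cells (0.433, 0.206 to 0.916). A single vehicle cell held 10 of the 16 Mki67 UMIs, and without the top 3 cells of each library the ratio was 0.909 (0.208 to 5.45). Only 1 vehicle and 2 CA3 cells held 3 or more of 8 genes of the G2 and M phases. No gene passed 2-fold among 13 interferon response, 11 adhesion, 10 S100 and effector memory, 8 survival, 7 chemokine receptor, 5 cytokine and 4 inhibitory receptor genes, and their median log2 ratios lay between -0.04 and 0.17.

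Of the 97 genes that met the rule for naming as higher, 12 are named, and 1 deep cell gave most of the first. Klk1, a kallikrein made in the distal nephron, had 15 UMIs in 13 vehicle cells and 311 in 50 CA3 cells (8.45, 5.04 to 15.3), of which 226 were in the cell of 20647 UMIs. That cell also held 82 of the 87 CA3 UMIs of Atp6v1g3, a proton pump subunit of intercalated cells. With members of at most 10000 UMIs the Klk1 ratio was 2.62, and in tubule cells it was 0.762. Umod, of the thick ascending limb, had 10 and 95 UMIs (3.87, 2.02 to 8.34), 71 of them in 1 CA3 cell, and 1.12 (0.457 to 3.15) without the top 3 cells of each library. The part of tubule RNA in these values was not tested.

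Cd74, the invariant chain of class II antigen presentation, had 2 UMIs in 2 vehicle cells and 48 in 22 CA3 cells (9.78, 2.56 to 83.1), 21 of them in 1 cell, and H2-Aa had 0 UMIs in vehicle. Lars2, a mitochondrial leucyl-tRNA synthetase, was at 250 and 544 CPM (2.17, 1.63 to 2.94), present in 31 of 45 and 79 of 90 cells. Atad2, a chromatin protein, had 17 and 123 UMIs in 13 and 49 cells (2.95, 1.77 to 5.23). S100g, a calcium-binding protein of the tubule, had 25 UMIs in 12 vehicle cells and 149 in 69 CA3 cells (2.43, 1.58 to 3.87), and was 1.48-fold (1.42 to 1.54) higher in CA3 tubule cells too. Gstp1, a glutathione transferase, had 4 and 51 UMIs (5.20, 1.91 to 19.8) and was 3.23-fold (2.82 to 3.70) higher in tubule cells, and 91.6% of its transcript end words occur in other genes. Slc25a36, Tmem248, Fbxo11 and Tigd2, with 2 to 5 vehicle UMIs each, had ratios from 4.08 to 7.95, while tubule cells had 0.957 to 1.16. Slc25a36 was at 186 and 184 CPM in tubule cells, above its 8.78 and 69.8 CPM in members. The other 3 were higher in CA3 members than in CA3 tubule cells. In tubule cells Lars2 was at 715 and 951 CPM and Cd74 at 85.5 and 87.8 CPM. How far RNA from tubule cells gave the values of these genes was not tested.

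Of the 81 genes that met the rule for naming as lower, 12 are named, Icos, Nr4a1 and Tcf7 among them. Hist1h1e, a linker histone, had 79 and 56 UMIs (0.289, 0.201 to 0.412), and lay below 1 in each of the 4 classes, at 0.135 in Nkg7-positive and 0.175 in Lef1/Ccr7-positive cells. All of its transcript end words, 100%, occur in other genes, so its UMIs could belong to other histones. Nme2, a nucleoside diphosphate kinase, had 30 and 20 UMIs (0.272, 0.146 to 0.495), with 98.6% shared words and a ratio of 0.582 in tubule cells. Klf4, a Krüppel-like transcription factor, had 50 UMIs in 12 cells and 44 in 18 (0.359, 0.234 to 0.549), but 0.546 (0.274 to 1.11) without the top 3 cells. Serpinb1a, a protease inhibitor, had 43 and 32 UMIs, of which 32 and 27 lay in cells with neither Nkg7 nor Lef1 or Ccr7 (0.303 over all members, 0.186 to 0.491). Pxdc1, Ankib1, Tbc1d4, Lmo4 and Tmem176b, with ratios from 0.225 to 0.498, make up the rest. Tbc1d4 moved from 0.340 to 0.636 (0.183 to 2.47) without the top 3 cells.

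**Figure D5:**
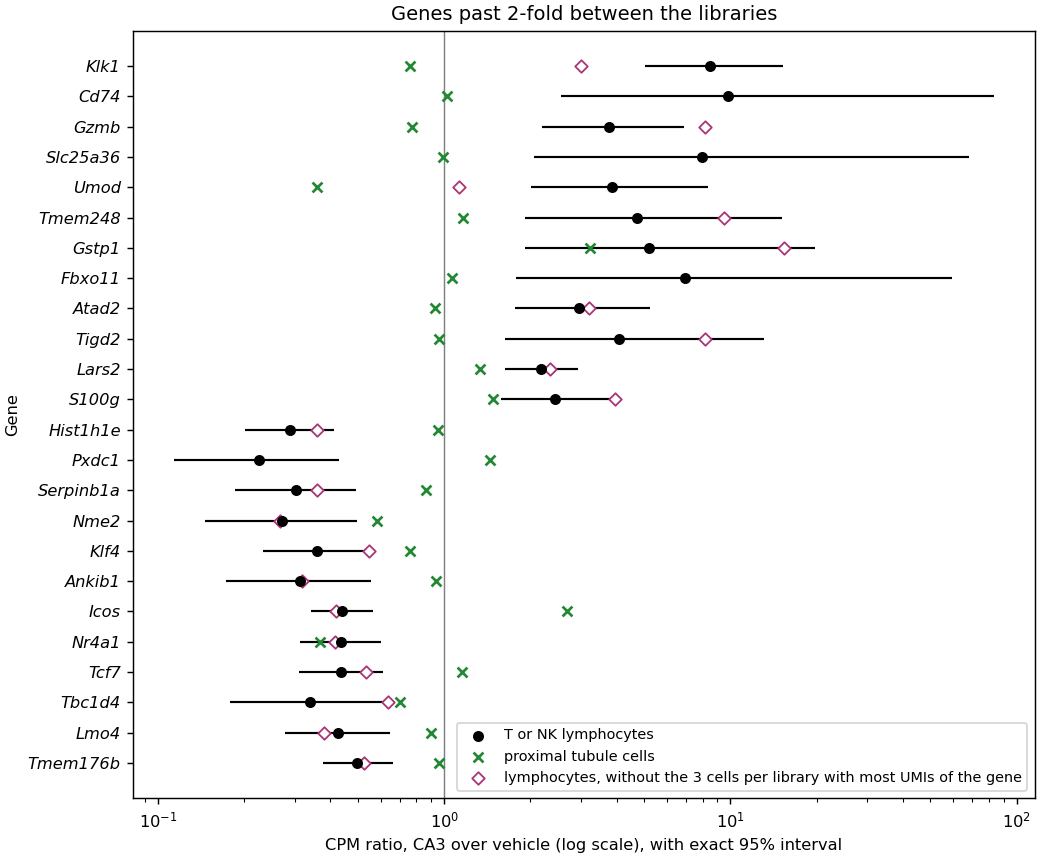
Black points give the CPM ratio of CA3 over vehicle lymphocytes (x axis, log scale) for 24 named genes (y axis) with exact 95% intervals, green crosses the ratio in proximal tubule cells, and diamonds the lymphocyte ratio without the 3 cells per library with most UMIs of the gene. Klk1 and Umod move from 8.45 and 3.87 to 3.01 and 1.12 without those cells, Gzmb moves to 8.15, and the tubule cross of Gstp1 lies at 3.23.

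The named target of CA3 was hardly measured in lymphocytes. Yap1 had 0 vehicle and 1 CA3 UMI, and Wwtr1, which codes for its relative TAZ, 0 and 3, against 227 and 180 Yap1 and 587 and 566 Wwtr1 UMIs in tubule cells. Of the 15 Hippo pathway genes 4 were measured and 0 passed 2-fold. Stk4, the MST1 kinase, which is known to act in T cells, had 52 UMIs in 30 vehicle cells and 100 in 60 CA3 cells (0.784, 0.555 to 1.12). Of 18 genes listed as YAP and TAZ targets 1 was measured, and Cyr61, a classical one, had 1 and 3 UMIs. A difference in these genes was not detectable in lymphocytes at this depth.

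The counting reference holds 5 reporter sequences, and which of them the R26.FUCCI2aR allele carries is not stated in the labels. They were almost absent as well. MbmCerulean had 1 UMI in vehicle and 5 in CA3 members, in 2.22% and 4.44% of cells, against 16.3% and 25.9% of tubule cells. EYFP, tdimer2, hrGFPIINLS and EGFP had 0 UMIs in members.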

How the data were processed

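Whole-kidney cell suspensions of 2 groups, vehicle and CA3, gave 1 10x Chromium 3' library each, sequenced on a NextSeq 500, per the labels' protocols. The deposited values are raw UMI counts per gene and cell. Counting used Cell Ranger 3.0.1 and mm10, per the submitters' processing notes. Settings that call cells and filter reads are not stated. The libraries held 1967 and 1724 barcodes and 19592239 and 17013222 UMIs over 31058 features.

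Cells were kept and members chosen by the limits stated in the text. Counts were summed per library and class and scaled to 1000000 UMIs of the 31045 features not encoded in mitochondria. Ratios carry an exact conditional binomial interval for 2 counts, and shares an exact Clopper-Pearson interval, both at 95%. A sum of 0 UMIs was set to 3 for a bound. A gene counted as past the fold at 30 or more UMIs and a ratio of 2 or more, or its inverse, in each library where subsets were compared. With 1 library per group no test was run. Intervals were tried on sums simulated as independent counts, the model they assume. The simulation did not cover UMIs that gather in single cells.

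Named genes also needed 50 CPM and a UMI in 10% of cells of the higher group, and were ranked by the interval bound nearest 1, at most 12 per direction. Genes that define the rule, mitochondrial and ribosomal protein genes and unnamed gene models were left out. Up to 4 genes of each lineage list, the reporters, Yap1, Wwtr1, Stk4 and Mki67 were named whatever their values. The members and lists were chosen with earlier results of these data known. Alternatives changed cell limits, class limits, minimum counts, scaling, depth (thinning to 2000 UMIs) and the cells with most UMIs. Genes are named as in the deposited files, positions are from GENCODE vM21 and start regions from RefSeq. Python 3.11.15, numpy 2.4.6, scipy 1.17.1, pandas 2.3.3 and matplotlib 3.10.9 were used.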

Additional observations from a re-analysis of the deposited data

Results flagged for a closer look

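Icos, the costimulatory receptor, differed in direction between the classes of lymphocytes: CA3 over vehicle was 2.07 (0.719 to 8.17) in Nkg7-positive cells, on 4 and 26 UMIs, and 0.250 (0.135 to 0.446) in Lef1/Ccr7-positive cells, on 40 and 18 UMIs. Rgs1, the regulator of chemokine receptor signalling, was likewise higher in Nkg7-positive cells, at 2.14 (1.62 to 2.88), from 983 CPM in vehicle to 2106 CPM in CA3. In Lef1/Ccr7-positive cells Rgs1 stood at 0.419 (0.261 to 0.670), from 956 to 401 CPM. Each class is from 1 library per group, and neither difference between classes was tested. In the Lef1/Ccr7-positive class, Trdc was present in 3 of 10 vehicle and 1 of 13 CA3 cells, and Il17a in 2 and 1. The vehicle cells of this class with either gene held 6, 9, 8 and 9 Icos UMIs, and 5, 23, 4 and 4 Rgs1 UMIs. The CA3 cell held 5 and 17. The part of these cells in the class ratios was not tested.

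MbmCerulean, a reporter sequence of the counting reference that the labels do not tie to the genotype, had 5 UMIs in 4 of 90 CA3 members and 1 UMI in 1 of 45 vehicle members.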

How the results depend on the processing

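Over all alternatives, the CA3 over vehicle ratio of the share of kept cells ranged from 2.26 to 2.54. CD3-positive cells ranged from 86.7% to 97.5% of vehicle and 88.9% to 94.4% of CA3 members, Nkg7-positive cells from 25% to 27.3% and 33.3% to 45.6%, and cells with 2 or more Trdc UMIs from 11.1% to 13.3% and 14.4% to 21.3%. Counts of genes past 2-fold moved with the minimum count. Thinned to 2000 UMIs, 54 genes were higher and 37 lower in CA3, 16 higher in CD3-positive and 40 in CD3-negative cells, and 69 in Nkg7-positive and 6 in Lef1/Ccr7-positive cells, with 1451 genes tested in place of 3969. At 15 or more UMIs they were 468, 263, 293 (CD3-negative), 214 and 93, and at 60 or more 25, 19, 64 (CD3-negative), 55 and 13. Between the libraries 6125 genes were tested at 15 or more UMIs and 2094 at 60 or more. Tubule RNA under 5 per 10000 left 13 genes higher in CD3-positive cells. Nkg7-positive cells alone gave 94 genes higher and 44 lower in CA3 of 1255 tested, 7.49% and 3.51%. Over all members these shares were 3.48% and 2.22% of 3969 genes. Sums over both libraries, chosen after seeing the data, gave 399 genes higher in CD3-positive and 455 in CD3-negative cells. In Nkg7-positive cells alone Icos (2.07), Lmo4 (1.59), Tcf7 (1.12) and Tmem176b (1.12) turned direction, and in thinned vehicle cells Smad7 (0.750) and Trbc1 (0.288) turned. The cause was not tested. Of 280 alternative values of the 24 genes named for CA3, 248 stayed inside the interval, 28 left it and 4 turned. For the other contrasts these were 431, 44 and 0 of 475 (Nkg7) and 411, 17 and 2 of 430 (CD3), and 12 alternatives gave no value. No paired analysis was possible because each group is 1 library and no test was run. Leaving out a library would leave no comparison.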

Other observations

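Lists outside the lineage genes also differed between Nkg7-positive and Lef1/Ccr7-positive cells. Of 10 measured S100 and effector memory genes, 4 were at least 2-fold higher in Nkg7-positive cells in both libraries, with median log2 ratios of 1.05 in vehicle and 1.82 in CA3. Of 7 chemokine receptor genes 4 were higher and 1 lower, and of 11 adhesion genes 4 were higher and 1 lower. Of 6 cell cycle genes 3 were higher in Nkg7-positive cells, and of 9 class I antigen presentation genes 2. In vehicle, 1 Nkg7-positive cell held 10 Mki67 and 10 Top2a UMIs. Only 1 vehicle and 2 CA3 members held 3 or more of 8 genes of the G2 and M phases, so the cell cycle count can rest on few cells. All genes measured gave 6.14% higher and 2.19% lower.

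Klf2, a transcription factor of recirculating lymphocytes, was low in cells with neither Nkg7 nor Lef1 or Ccr7, at 108 CPM in vehicle and 131 CPM in CA3, against 1466 and 2464 CPM in Lef1/Ccr7-positive cells and 1362 and 693 CPM in Nkg7-positive cells. In those same cells Rora was at 1213 and 695 CPM and Icos at 853 and 479 CPM. In Lef1/Ccr7-positive cells Rora was at 489 and 271 CPM and Icos at 850 and 212 CPM. Over all members Klf2 did not pass 2-fold between the libraries, at 0.990 (0.842 to 1.17). Klf2 was chosen after its values were seen.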
